A study of Homo sapiens with 6 samples.

Results

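The TCL1A neighbourhood on chromosome 14 is a group of 7 genes, GLRX5, TCL1A, TCL1B, AL139020.1, TUNAR, C14orf132 and ATG2B. They were picked from the counts reported here, as genes lying side by side that were off in the SEM::mock line, together with GLRX5 and ATG2B, which border them and were on in both lines. The counts of SEM::EGR3 against SEM::mock thus chose the members, so their differences are given as a description and without a test. Of the 7 genes, 6 were found by name among the 35410 listed genes, and TCL1B is not analysed here. RNA was measured by MACE-Seq, a sequencing of mRNA 3′ ends, in 3 libraries of SEM::mock and 3 of SEM::EGR3. SEM is a human proB leukemia cell line that carries the KMT2A::AFF1 fusion. SEM::mock holds an empty vector and SEM::EGR3 a vector for the transcription factor EGR3, and both lines received 1 µg/mL doxycycline for 48 h before harvest. Each condition is 1 line, so an effect of the transgene and a difference between the lines cannot be told apart, and the sources used here do not say whether the lines are clones.

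TCL1A encodes a small protein of B cell precursors and naive B cells that binds the AKT kinases and raises their activity. The gene owes its name to T cell leukemia, in which inversions and translocations of the long arm of chromosome 14 place it beside T cell receptor sequences and switch it on. TCL1B is its relative at the same locus. AL139020.1 is a long noncoding transcript read from the opposite strand across TCL1A. TUNAR, first described as a noncoding RNA of pluripotent and neural cells, lies next along the chromosome, followed by C14orf132, a gene of little known function that is active in the brain. GLRX5 encodes a mitochondrial glutaredoxin that hands on iron-sulfur clusters and is needed for heme synthesis in red cell precursors. ATG2B encodes a lipid transfer protein that feeds the growing membrane of the autophagosome.

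By GENCODE release 29 (GRCh38), the 6 measured members lie within 830 kb, from base 95533503 to base 96363870 of chromosome 14. GLRX5 (ENSG00000182512, plus strand) spans bases 95533503 to 95544724 and starts 181 kb before the TCL1A start site, in the direction of rising coordinates. TCL1A (ENSG00000100721, minus strand) spans bases 95709967 to 95714196, and AL139020.1 (ENSG00000257275, plus strand) bases 95711747 to 95757656. These genes overlap, and 216 of the 3017 exonic bases of AL139020.1 (7.16%) are also exonic in TCL1A. TUNAR (ENSG00000250366, plus strand) spans bases 95876392 to 95925571, 162 kb beyond the TCL1A start site. C14orf132 (ENSG00000227051, plus strand) spans bases 96039324 to 96093889 and starts 325 kb beyond it. ATG2B (ENSG00000066739, minus strand) spans bases 96279202 to 96363870, with its start site 650 kb beyond that of TCL1A.

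The 250 bases before the RefSeq start site (GRCh38.p14) are shown for the 4 measured members with an entry in the promoter table. They are shown because the first pair belongs to genes off in SEM::mock and the second pair to bordering genes on in both lines. These start sites are not the GENCODE ones used above. The windows of GLRX5 and ATG2B lie inside the GENCODE spans of the genes, and those of TCL1A and TUNAR reach into them. Capitals mark CG dinucleotides, the sites at which promoter DNA can be methylated, and all sequences run 5′ to 3′ on the strand of the gene. The first line is chr14:95714126-95714375 (minus strand), the second chr14:95876198-95876447 (plus strand), the third chr14:95534800-95535049 (plus strand) and the fourth chr14:96363342-96363591 (minus strand).
TCL1A: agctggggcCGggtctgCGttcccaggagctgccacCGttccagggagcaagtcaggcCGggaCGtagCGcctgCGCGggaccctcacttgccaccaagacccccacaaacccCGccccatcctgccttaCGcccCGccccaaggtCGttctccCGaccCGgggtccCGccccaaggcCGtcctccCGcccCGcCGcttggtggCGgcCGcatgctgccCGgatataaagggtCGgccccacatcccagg
TUNAR: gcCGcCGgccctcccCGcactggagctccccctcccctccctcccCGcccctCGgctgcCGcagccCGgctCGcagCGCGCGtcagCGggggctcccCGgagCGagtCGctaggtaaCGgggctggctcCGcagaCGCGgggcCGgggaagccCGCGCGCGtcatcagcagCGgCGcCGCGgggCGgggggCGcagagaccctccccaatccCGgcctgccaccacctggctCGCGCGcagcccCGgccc
GLRX5: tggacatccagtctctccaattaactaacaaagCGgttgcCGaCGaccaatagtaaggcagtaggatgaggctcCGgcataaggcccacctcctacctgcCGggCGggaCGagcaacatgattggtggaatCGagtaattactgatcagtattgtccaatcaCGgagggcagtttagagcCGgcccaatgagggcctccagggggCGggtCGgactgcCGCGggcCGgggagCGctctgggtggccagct
ATG2B: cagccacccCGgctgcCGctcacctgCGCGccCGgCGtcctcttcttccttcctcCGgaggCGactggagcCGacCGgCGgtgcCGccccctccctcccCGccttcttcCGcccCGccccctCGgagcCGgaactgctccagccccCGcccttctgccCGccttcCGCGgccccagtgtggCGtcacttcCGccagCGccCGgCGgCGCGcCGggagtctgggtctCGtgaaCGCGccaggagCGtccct
TCL1A had 23 CG dinucleotides in this window, more than 74.2% of the 35116 promoters of the table. TUNAR had 35, more than 94.2% of them, and its other listed start site had 31. ATG2B had 33 and GLRX5 16, more than 91.9% and 59% of the promoters. Genes off and genes on in SEM::mock thus both included windows rich in CG dinucleotides. AL139020.1 and C14orf132 are named only, and TCL1B, which has an entry but no counts here, is not shown.

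The EGR factors bind a motif of 9 bases, searched here on both strands as GCGTGGGCG and GCGGGGGCG in the 250 bases before and 50 bases after each start site. Neither spelling was found for GLRX5, TCL1A, TUNAR or ATG2B in these windows of 300 bases. Of all 35116 promoters, 279 (0.795%) held the first spelling, 1781 (5.07%) the second and 2026 (5.77%) at least 1 of them. A TATAAA motif was found once before TCL1A and not before the other 3 genes, and 10.7% of all promoters held it in the 250 bases before the start. The GC box CCCCGCCC, a site of SP1 type factors, occurred 2 times each before TCL1A, TUNAR and ATG2B and was not found before GLRX5, against 21.8% of all promoters with at least 1. Both motifs were searched on both strands, were picked after the sequences had been seen and do not overlap each other in their letters.

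Listed genes took 5286115 to 6181388 counts per SEM::mock library and 7293092 to 15106018 per SEM::EGR3 library, so absence is measured less deeply in SEM::mock. EGR3 was read in 6 to 10 counts per SEM::mock library and in 4952 to 9768 per SEM::EGR3 library, in the direction the labels give. Of 15465 genes tested by the quasi-likelihood test of edgeR (Benjamini-Hochberg adjustment), 36.5% were called higher in SEM::EGR3 and 32% lower (adjusted p-value under 0.05), with a median log2 difference of 0.03. The labelled proB identity was not seen in the libraries labelled SEM::mock: of 15 B-lineage markers, 10 were at 3 counts or fewer in each of these libraries, against 3 in each SEM::EGR3 library. PAX5, a defining factor of B-lineage cells, stood at 1, 1 and 2 counts in SEM::mock and at 3410, 1443 and 1760 in SEM::EGR3, and EBF1 had 0 in each SEM::mock library. The summed level of this list was 162 to 169 CPM (counts per 1000000 counts of the listed genes) in SEM::mock and 725 to 762 in SEM::EGR3. Most of the SEM::mock sum came from TCF3 and IKZF1, at 123 to 131 and 28.4 to 39.9 CPM. In SEM::EGR3, TCF3 stood at 175 to 183 and IKZF1 at 37.7 to 41 CPM. Of 10 genes that the KMT2A fusion activates, 2 were at 3 counts or fewer in each SEM::mock library, HOXA7 (0 in each) and HOXA9. This list summed to 283 to 319 CPM in SEM::mock and 1220 to 1350 in SEM::EGR3, while LMO2 stood the other way, at 95.9 to 117 against 28.7 to 34.8 CPM. Erythroid genes were read in both lines, at 5100 to 5310 CPM in SEM::mock and 6460 to 6750 in SEM::EGR3. The T cell list summed to 85.2 to 95.7 CPM in SEM::mock and 83.8 to 91.9 in SEM::EGR3, but its genes differed in opposite directions, with TRAC at 0.866 to 1.51 and 73.5 to 79.4 CPM and CD3D at 55.3 to 58.6 and 5.69 to 7.4. The myeloid list summed to 276 to 292 and 223 to 226 CPM, with LYZ at 144 to 161 and 42.5 to 45.4 CPM, while CEBPA stood at 11.2 to 12.8 in SEM::mock and at 128 or more in SEM::EGR3. The summed B-lineage markers moved with the members, and their part in the results was not tested. In bulk RNA, fewer cells that express a gene and less RNA per cell cannot be told apart.

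TCL1A, TUNAR, AL139020.1 and C14orf132 were at or near 0 in SEM::mock and were read in each SEM::EGR3 library. TCL1A was the highest of the 4, absent at 0 counts from all SEM::mock libraries and read 439, 247 and 268 times in those of SEM::EGR3. On the CPM scale with TMM factors, used for single genes from here on, the SEM::EGR3 libraries held 28.2, 33.1 and 29.5, a mean of 30.3 ± 2.56 (SD, n = 3). These 3 libraries lay close together, and none approached the level of 3 counts in SEM::mock, 0.538 CPM. Against that floor of 3 counts per library, the SEM::EGR3 level of TCL1A was at least 56.3-fold higher.

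C14orf132 came next, likewise with 0 counts in each SEM::mock library and with 97, 54 and 57 in SEM::EGR3. Its level in SEM::EGR3 was 6.23, 7.24 and 6.27 CPM, a mean of 6.58 ± 0.573 (SD, n = 3), at least 12.2-fold above the floor. The antisense transcript AL139020.1 was not read in SEM::mock (0 counts in each library) and was read 48, 28 and 25 times in SEM::EGR3. That made 3.08, 3.76 and 2.75 CPM, a mean of 3.2 ± 0.512 (SD, n = 3), at least 5.94-fold above the floor.

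TUNAR was the only one of the 4 with a count in SEM::mock, 0, 0 and 1 in replicates 1 to 3. SEM::EGR3 held 33, 28 and 20 counts of TUNAR, or 2.12, 3.76 and 2.2 CPM, with a mean of 2.69 ± 0.922 (SD, n = 3). The ratio of the lines was 42.4, with a 95% counting interval of 7.39 to 1690 that rests on 1 count against 81. This interval covers counting error only, as do the floors of the other members. TUNAR thus had the lowest mean of the 4 in SEM::EGR3 and the widest spread for its level.

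**Figure D1:**
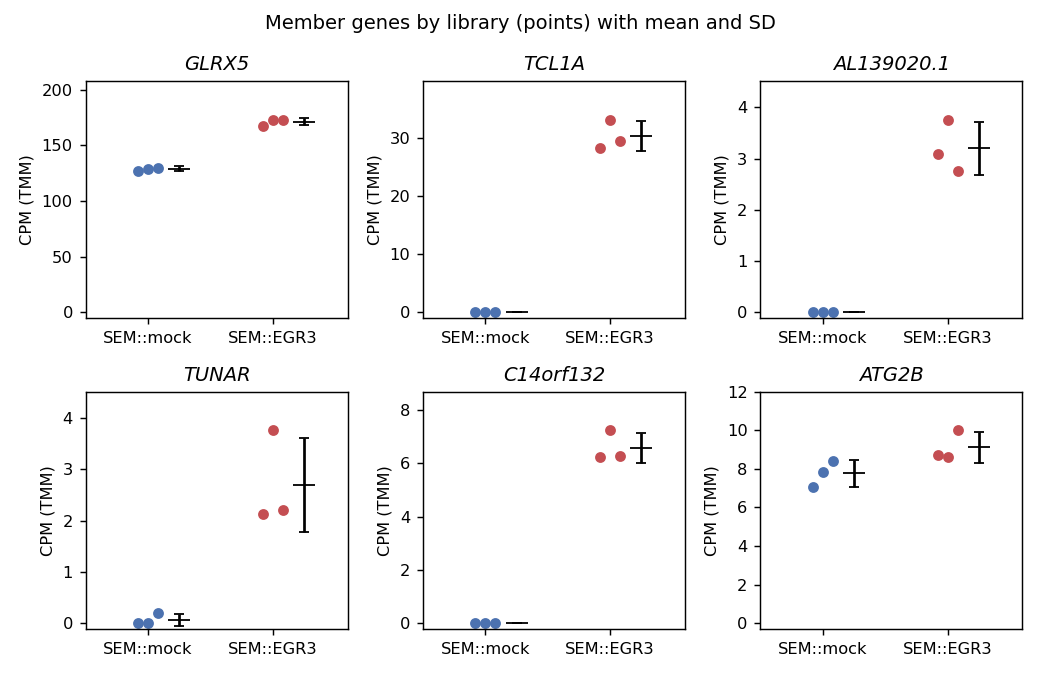
CPM with TMM factors (linear axes from 0, scaled for each gene) of the 6 measured members in the 3 SEM::mock (blue) and 3 SEM::EGR3 (red) libraries, 1 point a library, with the group mean and its SD in black beside the points. TCL1A, AL139020.1 and C14orf132 are at 0 counts in each SEM::mock library, TUNAR has 1 count in replicate 3, and GLRX5 and ATG2B are on in all 6 libraries.

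The bordering genes behaved differently. GLRX5 was high in all 6 libraries, at 127, 129 and 130 CPM in SEM::mock and 167, 173 and 173 in SEM::EGR3. The means were 129 ± 2.02 and 171 ± 3.22 (SD, n = 3 each), 1.33-fold higher in SEM::EGR3, a log2 difference of 0.41. The groups of GLRX5 did not overlap. ATG2B, at the far end, was low in both lines, at 7.04, 7.84 and 8.4 CPM in SEM::mock and 8.74, 8.59 and 10.0 in SEM::EGR3. Its means were 7.76 ± 0.683 and 9.11 ± 0.786, 1.17-fold higher in SEM::EGR3, a log2 difference of 0.23. The highest SEM::mock library of ATG2B lay just under the lowest SEM::EGR3 library.

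All 6 measured members were thus higher in SEM::EGR3 without overlap between the groups, as were 37.5% of all tested genes. Since the members were picked from these counts, nothing is read from that share. Of the members, 4 were off in SEM::mock (at most 3 counts in each library) and on in SEM::EGR3 (at least 10 counts in each library), a pattern met by 954 (2.69%) of all listed genes and called gained here. The limits were nearest for TUNAR among the members, with 1 count in 1 SEM::mock library and 20 in the lowest SEM::EGR3 library. Outside them lay RNU2-33P, a small nuclear RNA pseudogene beyond ATG2B with 3, 3 and 1 counts in SEM::mock and 10, 7 and 4 in SEM::EGR3. BDKRB1 was also outside, a bradykinin receptor gene 542 kb beyond the TCL1A start site, with 2, 1 and 1 counts in SEM::mock and 7, 1 and 6 in SEM::EGR3. SYNE3, 238 kb before it, had 15 to 21 counts in SEM::mock and so failed the limit for off.

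The relative levels of the 4 gained members were similar from library to library. MACE-Seq counts transcript ends, so CPM values of different genes are set side by side here without division by length. TCL1A made up 71.2%, 69.2% and 72.4% of the summed counts of the 4 genes in SEM::EGR3 replicates 1 to 3, and C14orf132 15.7%, 15.1% and 15.4%. AL139020.1 took 7.78%, 7.84% and 6.76%, and TUNAR 5.35%, 7.84% and 5.41%. TCL1A exceeded C14orf132 by a factor of 4.6 ± 0.0909 (SD, n = 3, range 4.53 to 4.7), the smallest spread of the group. With 97, 54 and 57 counts of C14orf132, counting error alone is wider than this SD, so no fixed ratio is read from it. It exceeded AL139020.1 by 9.56 ± 1.02 and TUNAR by 11.8 ± 2.62. In SEM::EGR3 the order of levels was GLRX5, TCL1A, ATG2B, C14orf132 and then AL139020.1 with TUNAR. The libraries of AL139020.1 (2.75 to 3.76 CPM) and TUNAR (2.12 to 3.76 CPM) overlapped, so these neighbours in the order did not differ beyond their spread, whereas all others were separated in all 3 libraries.

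TCL1A and its antisense transcript were followed as a pair. AL139020.1 held 9.86% of the counts of both genes in SEM::EGR3 replicate 1 (exact binomial 95% interval 7.36% to 12.9%), 10.2% in replicate 2 (6.87% to 14.4%) and 8.53% in replicate 3 (5.6% to 12.3%). Summed over the line, it held 101 of 1055 counts, or 9.57%. The 3 intervals overlap widely, so a shift of this share between the libraries was not detectable at this depth. Whether strand was used in counting is not given in the sources used here, so reads within the 216 shared exonic bases cannot be assigned with certainty to either gene.

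Other listed genes within the interval stayed low. Apart from the members, 7 listed genes start between GLRX5 and the end of ATG2B, and each had 10 counts or fewer in every library. TCL6, a long noncoding transcript of the TCL1 locus that starts 63.7 kb before TCL1A, was at 0 in all 6 libraries. BDKRB2, the second bradykinin receptor gene, was at 0 counts throughout SEM::mock and at 0, 1 and 1 in SEM::EGR3. AL133467.4, which lies on the GLRX5 side of TCL1A, was read 5, 2 and 2 times in SEM::mock compared with 2, 2 and 1 times in SEM::EGR3. These 7 genes lie outside the stretch from TCL1A to C14orf132, 3 of them on the GLRX5 side and 4 on the ATG2B side, and within that stretch no gene other than the 4 members is listed. MTCP1, the remaining member of the TCL1 family and a gene of the X chromosome, had 4, 4 and 7 counts per SEM::mock library and 11, 8 and 5 per SEM::EGR3 library. It was under the filter on low counts, and without the filter its log2 difference was -0.25 with an adjusted p-value of 0.725 by the quasi-likelihood test of edgeR (Benjamini-Hochberg adjustment).

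**Figure D2:**
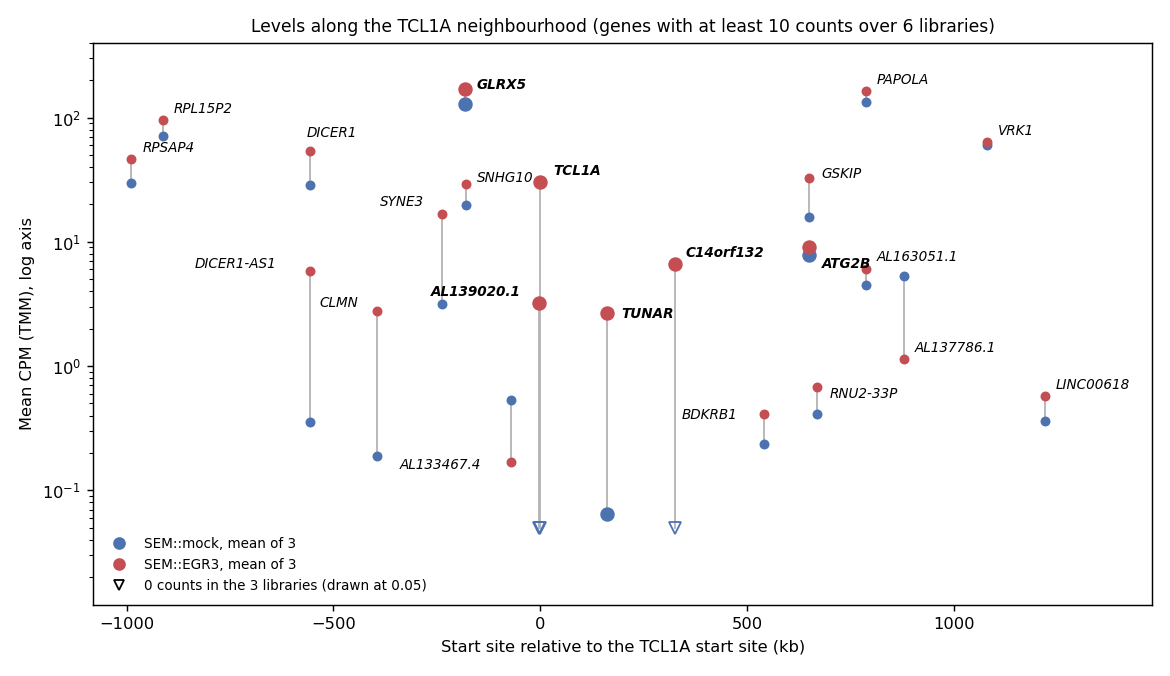
Mean CPM with TMM factors (log axis) of SEM::mock and SEM::EGR3 (3 libraries each) for genes with at least 10 counts over the 6 libraries, placed by the distance of their start site from that of TCL1A in kb, members in bold. The 4 gained members lie side by side between GLRX5 and ATG2B, and DICER1-AS1, CLMN and SYNE3 on the GLRX5 side also stand apart between the lines.

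The surrounding genes were compared over 1000 kb on each side, where 28 further genes are listed and 12 passed the filter on low counts. Of these 12, none of which is a member, 9 were higher in SEM::EGR3 and 1 was lower at an adjusted p-value under 0.05 by the quasi-likelihood test of edgeR (Benjamini-Hochberg adjustment), against 36.5% and 32% of all tested genes. Their median log2 difference was 0.60, against 0.03 over all tested genes. With an additional log2 difference of at least 1, 4 were higher and 1 lower, against 16.7% and 8.5% of all tested genes. The 4 were DICER1-AS1, CLMN, SYNE3 and GSKIP, the first 3 of them on the GLRX5 side.

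DICER1-AS1, a noncoding transcript that overlaps the start of DICER1 on the other strand, was read 1, 3 and 2 times in SEM::mock against 72, 44 and 62 times in SEM::EGR3. Its ratio was 15.5 (95% counting interval 6.99 to 42.9), with a fitted log2 difference of 3.92 (SE 0.39, adjusted p = 3.46e-09, edgeR). CLMN, which encodes the membrane protein calmin, was read 1, 0 and 2 times in SEM::mock against 35, 31 and 18 times in SEM::EGR3. Its ratio was 14.6 (95% counting interval 4.84 to 72.4, 3 counts against 84), with a fitted log2 difference of 3.78 (SE 0.60, adjusted p = 4.97e-06, edgeR). Both met the limits for gained genes, as did 4.41% of all genes with at least 10 counts over the 6 libraries, and lie 557 kb and 394 kb before the TCL1A start site. SYNE3, which encodes a protein of the outer nuclear membrane that ties the nucleus to the cytoskeleton, rose to 16.8 ± 2.11 CPM from 3.14 ± 0.315 (SD, n = 3 each), a log2 difference of 2.42 (SE 0.18, adjusted p = 1.07e-11, edgeR). A listed promoter of SYNE3, which lies outside the GENCODE span of the gene, held the EGR motif, as did 5.77% of all promoters. The other listed promoter of SYNE3 did not hold it, nor did those of DICER1, DICER1-AS1, SNHG10 and GSKIP.

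The other flanking genes differed less. DICER1, the nuclease that cuts microRNA precursors, rose from 28.6 ± 0.37 to 53.4 ± 4.89 CPM, a log2 difference of 0.92 (SE 0.09, adjusted p = 9.33e-10, edgeR). GSKIP, which binds the kinase GSK3B and shares its promoter region with ATG2B, rose from 15.8 ± 1.26 to 32.4 ± 2.54 CPM, a log2 difference of 1.03 (SE 0.10, adjusted p = 3.92e-09, edgeR). ATG2B itself stood at 7.76 and 9.11 CPM, and whether the 2 genes that face each other here differ in their change was not tested. SNHG10, a host gene of small nucleolar RNA that overlaps GLRX5 in 391 exonic bases, rose from 19.7 ± 1.08 to 29.2 ± 0.774 CPM. PAPOLA, a poly(A) polymerase, rose from 134 ± 7.88 to 163 ± 4.93 CPM, a log2 difference of 0.28 (SE 0.06, adjusted p = 0.000169, edgeR). VRK1, a nuclear kinase, did not pass, with 60.3 ± 4.1 and 63.5 ± 2.36 CPM and a log2 difference of 0.07 (SE 0.07, adjusted p = 0.356, edgeR). The noncoding AL163051.1 did not pass either, with a log2 difference of 0.42 (SE 0.20, adjusted p = 0.071, edgeR). AL137786.1, another noncoding gene, was the exception in direction and fell from 5.33 ± 0.665 to 1.13 ± 0.206 CPM, a log2 difference of -2.15 (SE 0.26, adjusted p = 7.95e-08, edgeR). RPSAP4 and RPL15P2 were also higher, by 0.64 and 0.41 on the log2 scale, but they are processed pseudogenes whose reads may belong to their parent genes.

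The 4 gained members were then placed among the 954 gained genes, whose mean level in SEM::EGR3 ranged from 1.07 to 212 CPM with a median of 3.51. TCL1A ranked 63 of the 954 by that level and C14orf132 303, while AL139020.1 ranked 515 and TUNAR 598. TCL1A and C14orf132 thus lay in the upper part of the range, and the other two under its median. The reverse pattern, on in SEM::mock and off in SEM::EGR3, was met by 0 genes. After scaling all counts to the smallest library, 689 genes were gained and 11 lost, although scaling does not even out the smaller counting error of the deeper libraries. The 4 members kept the pattern after scaling, with lowest SEM::EGR3 counts of 154 for TCL1A, 33.9 for C14orf132, 14.9 for AL139020.1 and 11.5 for TUNAR. On chromosome 14, 41 of 699 genes with at least 10 counts were gained (5.87%), and the largest share of a chromosome was 9.23%, on chromosome 21.

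**Figure D3:**
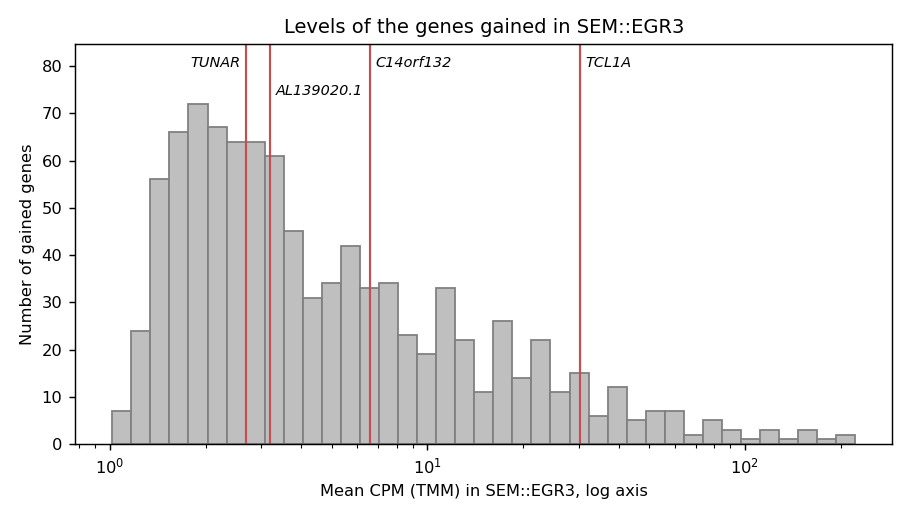
Number of gained genes (vertical axis) by their mean level in SEM::EGR3 in CPM (log axis), for the 954 genes with at most 3 counts in each SEM::mock library and at least 10 in each SEM::EGR3 library, with the 4 members of the TCL1A neighbourhood marked. TCL1A and C14orf132 lie above the median of 3.51 CPM, AL139020.1 and TUNAR under it.

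Along the chromosomes, the gained genes were mostly scattered. In the order of the 21285 placed genes with at least 10 counts, 943 gained genes formed 832 runs of direct neighbours, of which 739 held a single gene and 80 a pair. Runs of 3 or more numbered 13. TCL1A, AL139020.1, TUNAR and C14orf132 formed 1 of 3 runs of 4 genes, over 384 kb, and it was chosen as such. Scaled to the smallest library, the counts left 4 runs of 3 or more, and this run stayed at 4 genes. With off set at 0 counts, runs of 3 or more numbered 3 and the run of TCL1A held 2 genes, and with on set at 30 counts there were 0 such runs and TCL1A stood alone. A single run was longer, with 5 genes over 56.8 kb on chromosome 21 around DNMT3L and AIRE, which encode a cofactor of DNA methylation and a regulator of tissue antigens in the thymus. The other 2 runs of 4 were found on chromosome 4 around PDE6B, a phosphodiesterase gene of rod photoreceptors, over 93.6 kb, and on chromosome 8 around PAG1, which encodes a membrane adaptor of lymphocyte signalling, over 653 kb. Several of the runs hold antisense pairs, as TCL1A with AL139020.1 does, and reads of such pairs are not independent where strand was not used.

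The genes most like TCL1A over the 6 libraries, by Euclidean distance in log2(CPM + 0.5), were ARHGAP30, ADGRB1, ECEL1, RASD2 and MB, at distances of 0.124, 0.221, 0.225, 0.293 and 0.334. Each of the 5 had 0 counts in all SEM::mock libraries, and their means in SEM::EGR3 were 30.7, 28.6, 28.2, 28.9 and 33.9 CPM. The measure thus found genes off in SEM::mock and at the level of TCL1A in SEM::EGR3. The neighbours of TCL1A ranked lower by this measure because it reads level as well as pattern, with C14orf132 at 3.67 (rank 367), AL139020.1 at 5.31 (rank 884) and TUNAR at 5.75 (rank 1173).

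Genes around the AKT kinases, which the TCL1A protein binds, were compared next. Of 41 names, of which 1 is an older name of THEM4, 39 were tested, and by the quasi-likelihood test of edgeR (Benjamini-Hochberg adjustment) 17 were higher and 13 lower in SEM::EGR3. The median log2 difference was 0.12, against 0.03 over all tested genes, and 30 of the 39 were called in either direction, as were 68.5% of all tested genes. AKT1 and AKT2 moved apart. AKT2 rose from 72 ± 5.75 to 126 ± 4.36 CPM (SD, n = 3 each, log2 difference 0.80, adjusted p = 6.91e-11, edgeR). AKT1 fell from 148 ± 11.5 to 115 ± 10.8 CPM (log2 difference -0.36, adjusted p = 5.41e-05, edgeR).

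Regulators of the same module moved in both directions. PIK3AP1, an adaptor that links the B cell receptor to PI3 kinase, rose from 2.98 ± 0.171 to 56.5 ± 1.94 CPM, the largest difference of the list at 4.24 on the log2 scale. TRIB1, a pseudokinase, rose from 17.2 ± 1.92 to 57.4 ± 3.98 CPM. INPP5D, a phosphatase of the lipid that recruits AKT, rose from 15.1 ± 1.35 to 25.3 ± 1.97 CPM. THEM4, described as a binding partner of AKT1, fell from 72.3 ± 2.28 to 21.9 ± 2.07 CPM, with a log2 difference of -1.70 (SE 0.08, adjusted p = 1.64e-15, edgeR). The lipid phosphatase INPP4B fell from 5.91 ± 1.01 to 2.53 ± 0.363 CPM and the PI3 kinase subunit PIK3CG from 42.6 ± 3.4 to 17.7 ± 0.547 CPM. The adjusted p-values of these 6 regulators were 2.62e-05 (INPP4B) or lower by edgeR. Genes that raise and genes that limit AKT signalling were thus found on both sides.

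**Figure D4:**
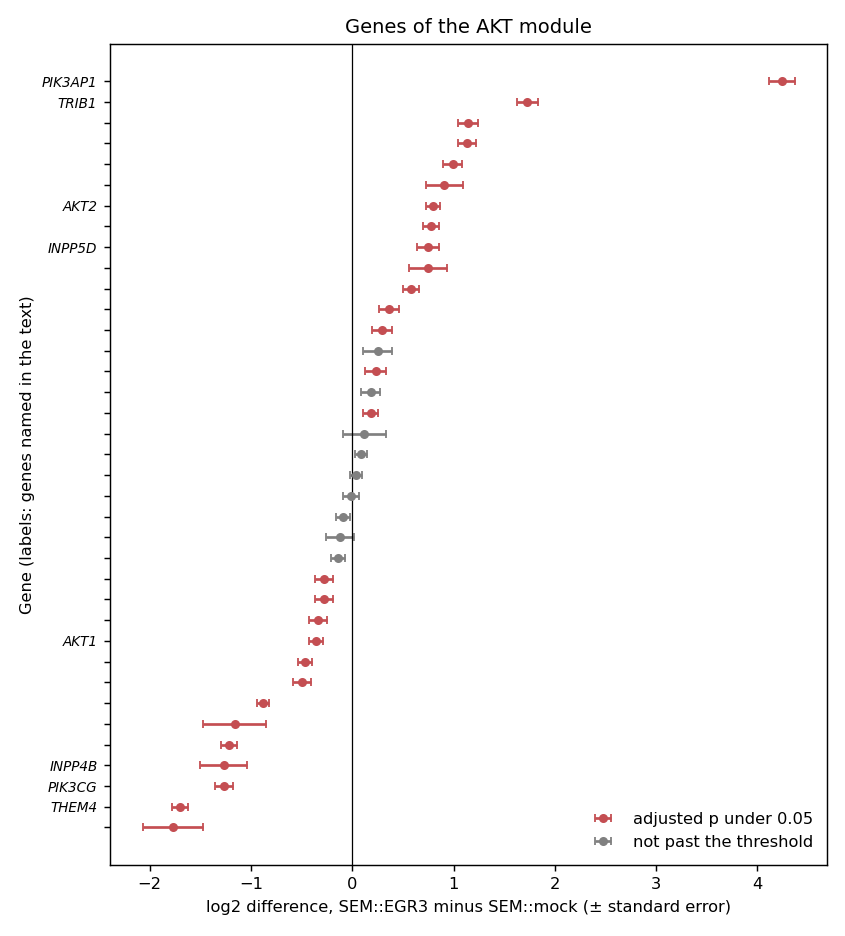
Log2 difference between SEM::EGR3 and SEM::mock with its standard error for tested genes of the AKT list, ordered by value and coloured by whether the adjusted p-value of edgeR's quasi-likelihood test was under 0.05. Each point is a gene, and those named in the text are labelled. Of the labelled genes, PIK3AP1 lies farthest to the right at 4.24 and THEM4 farthest to the left at -1.70, and AKT1 and AKT2 lie on opposite sides of 0.

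The partners of the bordering genes were compared in the same way. Of 37 tested genes of autophagy, the process of ATG2B, 12 were higher and 11 lower by the quasi-likelihood test of edgeR (Benjamini-Hochberg adjustment), with a median log2 difference of 0.06. TFEB, a transcription factor of lysosome and autophagy genes, rose from 7.87 ± 1.35 to 32.5 ± 2.94 CPM, a log2 difference of 2.04 (SE 0.13, adjusted p = 5.15e-13, edgeR). ATG101 and ULK1 of the complex that starts autophagy rose by 0.87 and 0.77 on the log2 scale. VMP1, a lipid scramblase of the endoplasmic reticulum, fell from 133 ± 0.967 to 82.1 ± 2.51 CPM, and ATG5 and ATG16L2 of the conjugation machinery fell by 0.54 and 0.58 on the log2 scale. Of these 6 genes, ATG16L2 had the largest adjusted p-value, 0.0125 by edgeR. ULK2 lay under the 5 CPM set for naming but had the largest fitted log2 difference of the list, 7.38. It was read 0 times in each SEM::mock library and 36, 19 and 26 times in SEM::EGR3. ATG2A, the close relative of ATG2B, fell from 36.9 ± 4.09 to 26.3 ± 0.981 CPM (log2 difference -0.49, adjusted p = 4.2e-05, edgeR), while ATG2B stood higher in SEM::EGR3. Of the WIPI proteins, which tether ATG2 proteins to the membrane, WIPI1 and WIPI2 did not pass, with log2 differences of -0.32 and -0.09 (adjusted p = 0.0968 and 0.176, edgeR). WDR45 was lower and WDR45B higher in SEM::EGR3, with log2 differences of -0.27 and 0.26 (adjusted p = 0.0166 and 0.00729, edgeR).

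For iron-sulfur cluster assembly, the process of GLRX5, 12 of 32 tested genes were higher and 8 lower by the same test, with a median log2 difference of 0.03. Without SEM::EGR3 replicate 1, the number of lower genes was 5. ISCA2 and ISCA1, which act after GLRX5 in mitochondria, rose by 0.68 and 0.44 on the log2 scale, and ACO1, a cytosolic iron sensor, by 0.51. FDXR, which supplies electrons for the assembly, fell from 135 ± 2.29 to 82.7 ± 7.65 CPM, a log2 difference of -0.72 (SE 0.06, adjusted p = 5.06e-10, edgeR). The cytosolic factors CIAO2A and GLRX3 had log2 differences of -0.52 and -0.45 and also passed, and of these 6 genes ISCA1 had the largest adjusted p-value, 0.00255 by edgeR. ISCU, the scaffold on which clusters are built, and GLRX2, a mitochondrial glutaredoxin, did not pass, with log2 differences of 0.12 and -0.15 (adjusted p = 0.0934 and 0.0859, edgeR). In these lists, 23 of 37 and 20 of 32 genes were called in either direction, against 68.5% of all tested genes, and no member of the iron-sulfur list reached a log2 difference of 1 in either direction.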

How the data were processed

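MACE-Seq libraries of SEM::mock and SEM::EGR3 (3 biological replicates each, grouped by sample title) were analysed. Whether replicates came from separate cultures is not stated in the labels, so p-values measure the spread between these libraries. Raw integer counts, deposited by the authors with no scaling, were analysed. They also deposited CPM values, which served here only to read the library totals, 73.6% to 75.8% of which lie in the listed genes, and size-factor normalized counts, a signal scale, which were not used. The deposited log2 fold changes and p-values of the authors' own comparison were not used. Per the labels, the submitters' processing notes name bcl2fastq, Bowtie2, HTSeq and GRCh38, while versions, annotation and strand setting are not given in the sources used here. The deposited columns spell the gene ERG3 and were assigned to SEM::EGR3 by title. All columns of samples were assigned.

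Counts were fitted in R 4.3.3 with edgeR 4.0.16 (filterByExpr, TMM, glmQLFit and glmQLFTest, all 6 libraries, no further term), with Benjamini-Hochberg adjustment over 15465 genes and library sizes equal to the totals of the listed genes. The standard error was taken as the absolute log2 difference divided by the square root of F. Off was set at 3 counts or fewer and on at 10 or more in each library, and a fold against libraries at 0 is a lower bound from 3 counts per library. Positions were taken from GENCODE release 29, which holds 34339 (97%) of the identifiers, and promoters from RefSeq by symbol, with an entry for 5 of the 7 members. Libraries of 1 line differed by more than counting noise and were kept as replicates. The members and gene lists were chosen with earlier results of these data known. Named were all members, the 5 highest and 5 lowest tested flanking genes, 3 at each end of each list (adjusted p-value under 0.05, mean of at least 5 CPM in the higher line), fixed partners of the members, the 5 genes nearest to TCL1A and the longest runs. SNHG10, RPSAP4, AL133467.4, RNU2-33P, BDKRB1, BDKRB2, ULK2, WDR45 and WDR45B were named after their values had been seen. Single values of a few genes of the AKT list are not reported here, although they enter its counts. CMC4, which shares exons with MTCP1, is not analysed here. DESeq2 1.42.0, other scalings, filters, windows, limits, a replicate term and leaving out each library were tried as alternatives.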

Additional observations from a re-analysis of the deposited data

How the results depend on the processing

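Of 228 comparisons of a result with an alternative setting, 194 kept their size within the limits used and 34 moved. The 194 include the numbers of gained genes and gained members with a library left out, which could not fall. Only the log2 differences of the members could reverse in direction. They reversed 0 times, but the members were picked from this contrast, so nothing is read from that. Counts at or near 0 in SEM::mock bound what can be said of the 4 gained members. Of these, 3 had fitted log2 differences that depended on the tool. DESeq2 gave 9.84 for TCL1A, 6.59 for AL139020.1 and 7.64 for C14orf132, against 10.93, 7.69 and 8.73 by edgeR. TUNAR kept its size, at 5.37 by DESeq2 and 5.10 by edgeR. A filter of at least 10 counts in every library removed the 4 gained members, so no value was had there. GLRX5 stood at 0.48 without normalization factors and at 0.46 with that filter, under which 0 flanking genes were lower. At an absolute log2 difference of at least 1, 4 flanking genes were higher, the AKT list held 6 higher and 6 lower, the autophagy list 2 and 0, the iron-sulfur list 0 and 0, and all genes 2581 and 1315. Within 2000 kb, 10 flanking genes were higher and 3 lower, against 9 and 1 within 1000 kb. With off set at 0 counts, 321 genes were gained, in 3 runs of 3 or more, and TCL1A lay in a run of 2. With on set at 30 counts, 430 genes and 2 members were gained, in 0 such runs, and TCL1A stood in a run of 1. Scaling to the smallest library left 4 runs of 3 or more.

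Leaving out each library in turn gave log2 differences of 10.70 to 11.03 for TCL1A, 8.49 to 8.83 for C14orf132, 7.43 to 7.79 for AL139020.1, 0.38 to 0.43 for GLRX5 and 0.15 to 0.28 for ATG2B. TUNAR ranged from 4.57 to 7.48, the latter without SEM::mock replicate 3, which holds its only count there. Higher and lower calls ranged from 9 to 9 and 1 to 1 for the flanks, 14 to 17 and 13 to 14 for the AKT list, 11 to 13 and 9 to 13 for autophagy, 9 to 12 and 5 to 9 for iron-sulfur genes (5 without SEM::EGR3 replicate 1) and 5312 to 5570 and 4626 to 4940 for all genes. Gained genes ranged from 954 to 1176 and gained members from 4 to 4. Leaving out a library can only loosen the limits for gained genes, so these numbers could not fall and nothing is read from them.

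Deviations of same-numbered libraries correlated at -0.138, -0.0935 and -0.0431, so no pairing of the lines by number was seen. This does not show that same-numbered libraries were prepared apart. With the replicate number as a block, 5388 genes were higher and 4694 lower, against 5638 and 4955 without it, and no count given here moved by over 1.5 times.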
